A study of Mus musculus with 12 samples.

Results

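The 31 genes described here encode the enzymes that make cholesterol and fatty acids in mouse cells, together with the factors that regulate them. They were chosen by gene symbol, because mevalonate kinase (Mvk) and isocitrate dehydrogenase 1 (Idh1) had been seen to be lower with regorafenib in these same libraries. All 31 symbols were found among the 55487 gene identifiers measured, and all 31 were among the 16974 genes with enough reads to be tested. By role they fell into 7 enzymes from acetyl-CoA to farnesyl diphosphate, 11 enzymes from squalene to cholesterol, 4 regulators and sterol carriers, and 9 genes of fatty acid synthesis with its carbon and NADPH supply.

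The RNA came from subcutaneous tumours of Sq-1979, a mouse head and neck squamous cell carcinoma line, grown in male C3H/HeN mice that were 6 weeks old when the cells were injected in Matrigel. Treatment started 20 days after implantation and had 4 arms: regorafenib with anti-PD1 (called the combination), regorafenib alone, anti-PD1 alone, and vehicle. Regorafenib is an oral inhibitor of several receptor tyrosine kinases and was given at 5 mg/kg/day. Anti-PD1 is an antibody against an inhibitory receptor of T cells; the labels name daily gavage for all arms and give no separate dose or route for the antibody. Each arm had 3 libraries, and all tumours came from this 1 cell line. The labels do not say that the 3 libraries of an arm came from separate mice, so p-values measure only the spread between these libraries.

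The libraries held between 22591835 and 28209036 counted reads. Levels are given as CPM, each count divided by the library total and put on the usual scale of this unit, with TMM factors between libraries, and each mean stands with its SD over 3 libraries. The keratinocyte and carcinoma marker list of 10 genes summed to 11540 to 13131 CPM in combination, 11094 to 13843 CPM in regorafenib, 11587 to 14437 CPM in anti-PD1 and 13850 to 16293 CPM in vehicle libraries, with none of its genes at 0. Every vehicle sum was above every combination and regorafenib sum, at the closest 13850 against 13843 CPM. Krt5 and Krt14 made up most of the sum, and other genes of the list differed in direction. In the edgeR fit 3 of the 10 were higher than vehicle with regorafenib and 4 with the combination. Among them was Krt18, at 226 ± 91 CPM in combination, 199 ± 118 CPM in regorafenib, 122 ± 50 CPM in anti-PD1 and 106 ± 4 CPM in vehicle libraries. The adipocyte markers Adipoq, Plin1 and Lep did not exceed 1.31, 1.10 and 3.30 CPM in any library. Others of the adipocyte list were higher, with Lpl, Fabp4, Adrb3 and Cfd reaching 36.5, 16.2, 11.9 and 5.60 CPM. Of the sebocyte list, Mc5r and Awat2 did not exceed 0.139 and 0.696 CPM, whereas Krt79 reached 62.0 CPM.

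Cholesterol is built from acetyl-CoA through mevalonate, isoprenoid diphosphates, squalene and lanosterol, and most of the enzymes lie in or on the endoplasmic reticulum. When sterol in that membrane is low, the transcription factor SREBP2 (gene Srebf2) is released by cleavage and raises transcription of nearly the whole route; SREBP1 (gene Srebf1) does the same for fatty acid synthesis, and Insig1 holds both precursors back when sterol is plentiful. SREBPs bind short sterol regulatory elements, usually beside sites for the general factors NF-Y and Sp1, and the genes therefore tend to move as a block in many tissues.

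Averaged over regorafenib versus vehicle and combination versus anti-PD1, Mvk, Idh1 and Ebp were lowest relative to their spread. Hmgcs1 was the only member whose window held the searched sterol regulatory element. The libraries of Fasn overlapped between all arms. The promoters of these 5 members are shown because the results turn on them. Each is the 200 bases before the annotated start, 5′ to 3′ on the strand of the gene, from RefSeq on build GRCm38.p6. Capitals mark matches on either strand to the NF-Y box (CCAAT, or ATTGG when read on the other strand), the Sp1 box (GGGCGG, or CCGCCC) and, in Hmgcs1, the sterol regulatory element TCACNCCAC. They lie at chr5:114444069-114444268 on the plus strand (Mvk), chr1:65186480-65186679 on the minus strand (Idh1), chr13:119690151-119690350 on the plus strand (Hmgcs1), chrX:8193513-8193712 on the minus strand (Ebp) and chr11:120824548-120824747 on the minus strand (Fasn).
Mvk: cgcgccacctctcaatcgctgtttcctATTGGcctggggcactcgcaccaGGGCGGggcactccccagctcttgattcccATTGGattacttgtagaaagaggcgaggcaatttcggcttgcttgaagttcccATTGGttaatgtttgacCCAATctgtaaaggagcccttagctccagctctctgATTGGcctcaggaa
Idh1: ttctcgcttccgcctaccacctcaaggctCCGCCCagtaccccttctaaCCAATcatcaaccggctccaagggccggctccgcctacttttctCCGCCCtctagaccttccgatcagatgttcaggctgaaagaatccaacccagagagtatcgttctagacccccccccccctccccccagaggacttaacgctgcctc
Hmgcs1: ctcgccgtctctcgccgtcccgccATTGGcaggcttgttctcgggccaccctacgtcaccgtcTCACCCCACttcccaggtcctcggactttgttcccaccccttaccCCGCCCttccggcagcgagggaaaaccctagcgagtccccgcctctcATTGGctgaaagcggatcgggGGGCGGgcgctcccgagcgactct
Ebp: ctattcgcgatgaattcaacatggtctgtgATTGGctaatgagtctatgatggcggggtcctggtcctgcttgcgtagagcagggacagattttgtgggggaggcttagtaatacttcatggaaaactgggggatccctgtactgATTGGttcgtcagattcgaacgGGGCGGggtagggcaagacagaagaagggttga
Fasn: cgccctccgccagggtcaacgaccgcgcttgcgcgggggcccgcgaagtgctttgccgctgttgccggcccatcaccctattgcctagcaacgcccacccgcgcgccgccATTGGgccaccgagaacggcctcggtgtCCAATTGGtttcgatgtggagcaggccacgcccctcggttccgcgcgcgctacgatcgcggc

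The Mvk stretch held 5 NF-Y boxes and 1 Sp1 box, the Idh1 stretch 1 and 2, the Hmgcs1 stretch 2 of each, and the Ebp stretch 2 and 1. In Fasn, 3 NF-Y boxes were found, of which a pair overlaps in CCAATTGG. In Idh1, 21 of the bases lie in an annotated exon, and the other 4 stretches overlap none. A RefSeq window was at hand for 25 of the 31 members. In the 250 bases before the start, on either strand, the NF-Y box occurred in 21 of the 25 genes (84%), against 39.8% of the 11708 tested genes with a window and 37.5% of all 27025 genes with one. The Sp1 box also occurred in 21 of the 25 (84%), against 60.2% of tested genes and 35.4% of all genes. The sterol regulatory element in this exact form occurred in 1 of the 25 (4%), against 1.28% of tested genes and 1.22% of all genes. These are counts of letters in fixed windows, and genes with several windows count once.

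The 4 arms allow 2 comparisons of regorafenib: alone against vehicle, and added to anti-PD1. Regorafenib versus vehicle and the average of both comparisons are the contrasts in which the genes were noticed, so their values are given as a description and no test is read from them. Combination versus anti-PD1 uses libraries outside regorafenib versus vehicle and was tested with edgeR, although for Mvk and Idh1 it is part of the average and therefore again a description. Fold changes are log2 values from the edgeR fit, with their standard errors (SE). A gene was called when its Benjamini-Hochberg adjusted p over all 16974 genes was below 0.05.

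Across the 31 genes, the fitted log2 fold change of regorafenib versus vehicle was negative for 28, with a median of -0.47, where the median of all tested genes was 0.01. In 17 members all 3 regorafenib libraries lay below all 3 vehicle libraries, which was so for 10.2% of all genes. None was called in either direction, where 0.00589% of all genes were called. At an unadjusted p below 0.05 edgeR had 18 members and 14.1% of all genes. DESeq2 called 4 members lower, where 153 of all 16974 genes were. All of these counts come from the contrast in which Mvk and Idh1 were noticed. They are a description and are not read as a test of the members. Among the other 29 members, 26 were negative, with a median of -0.44. The 3 members with positive values were Tm7sf2, Scd1 and Fasn. The heat map of levels relative to vehicle shows how widely this was shared.

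**Figure D1:**
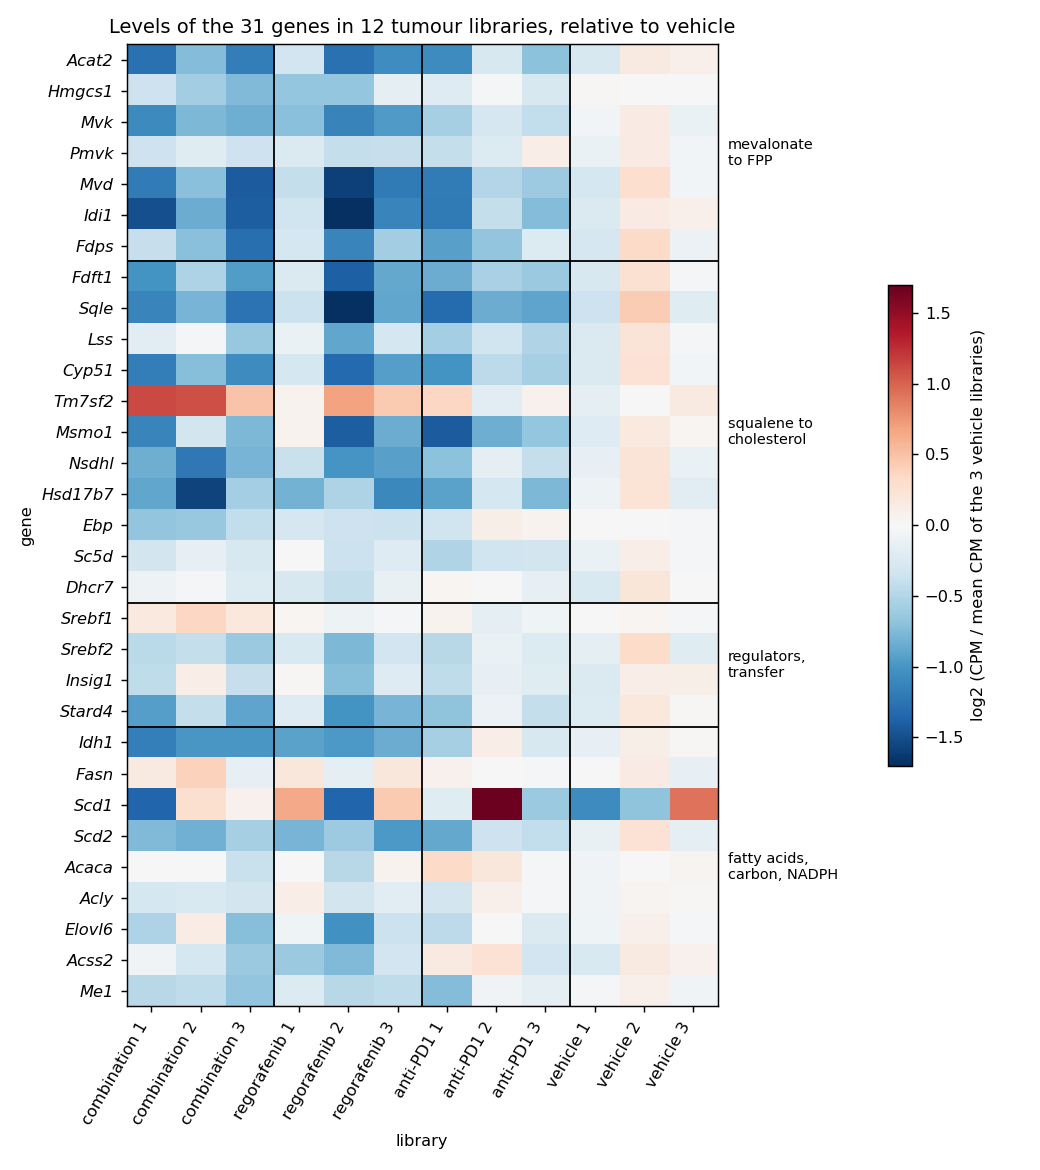
Level of each of the 31 genes (rows, by role) in each of the 12 libraries (columns, by arm), as log2 of the CPM over the mean CPM of the 3 vehicle libraries. Blue rows run through most of the 18 mevalonate and sterol enzymes in all 9 treated libraries, Idh1 is blue in the 6 libraries with regorafenib, Tm7sf2 is red in the combination libraries, and Srebf1, Fasn and Acaca stay pale.

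On the route to farnesyl diphosphate, all 7 enzymes had negative values in regorafenib versus vehicle, with a median of -0.82. None of the 7 was called in that comparison, in which Mvk had been noticed; all 7 had regorafenib libraries below all vehicle libraries, against 10.2% of all genes. Mvk, which phosphorylates mevalonate, lies on chromosome 5 (114444269 to 114460591, plus strand, GRCm38). Its level was 12.02, 14.97 and 14.31 CPM in combination libraries, 15.43, 11.56 and 13.07 CPM in regorafenib libraries, 17.23, 20.73 and 18.89 CPM in anti-PD1 libraries, and 24.66, 28.00 and 23.41 CPM in vehicle libraries. The 6 libraries with regorafenib were the lowest 6, vehicle was highest, and anti-PD1 alone lay between without overlapping either side. The log2 fold change was -0.92 ± 0.14 (SE) for regorafenib versus vehicle, -0.46 ± 0.14 for combination versus anti-PD1 and -0.69 ± 0.10 on average, the last a decrease of 38.1%.

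Hmgcs1, the cytosolic HMG-CoA synthase that feeds the pathway, had the highest level per kb of exon among the 31 in vehicle tumours, 45.0 CPM per kb. It read 162, 138 and 123 CPM in combination libraries, 131, 131 and 185 CPM in regorafenib libraries, 177, 202 and 171 CPM in anti-PD1 libraries, and 209, 206 and 205 CPM in vehicle libraries. Vehicle libraries lay above all 9 treated ones, and combination libraries lay below all anti-PD1 libraries; regorafenib 3 stood apart from the other 2 of its arm. Combination versus anti-PD1 gave -0.38 ± 0.14 (SE), which did not pass the threshold (edgeR adjusted p = 0.187).

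Acat2, the cytosolic acetoacetyl-CoA thiolase, averaged 17.9 ± 3.7 CPM in combination, 20.8 ± 7.6 CPM in regorafenib, 23.6 ± 6.5 CPM in anti-PD1 and 36.8 ± 5.6 CPM in vehicle libraries. Its near copy Acat3 stayed below 1 CPM in every library. The isomerase Idi1 averaged 9.31 ± 2.41, 11.1 ± 5.4, 12.9 ± 3.4 and 21.6 ± 2.9 CPM in the same order of arms, and the decarboxylase Mvd 8.52 ± 2.19, 9.15 ± 4.01, 10.8 ± 2.5 and 18.01 ± 3.67 CPM. In these 3 genes every treated mean was below vehicle, and the treated arms overlapped. Phosphomevalonate kinase (Pmvk) differed least of the 7, with -0.34 ± 0.13 (SE) in regorafenib versus vehicle and -0.14 ± 0.13 in combination versus anti-PD1. Farnesyl diphosphate synthase (Fdps) was listed at 1.27 to 3.84 CPM; it shares 1124 of its 4208 exonic bases on the same strand with Gm43738, which was at 0 counts in all 12 libraries, so its level is uncertain.

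From squalene to cholesterol, 10 of the 11 enzymes had negative values in regorafenib versus vehicle, with a median of -0.60, and in 5 the regorafenib libraries were all below the vehicle libraries, against 10.2% of all genes. Squalene monooxygenase (Sqle), a rate-limiting step, read 29.6, 37.2 and 27.0 CPM in combination libraries, 49.7, 19.8 and 34.7 CPM in regorafenib libraries, 26.0, 35.8 and 34.4 CPM in anti-PD1 libraries, and 50.3, 86.7 and 55.7 CPM in vehicle libraries. Every vehicle library was above every treated one, but regorafenib 1 came within 1 CPM of the lowest vehicle library. The log2 fold change of regorafenib versus vehicle was -0.89 ± 0.31 (SE), whereas combination versus anti-PD1 gave -0.04 ± 0.31 (edgeR adjusted p = 0.962).

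Ebp, the isomerase that shifts a double bond in the sterol ring, lies on chromosome X (8185329 to 8193512, minus strand) and shares no exonic base with another annotated gene. Its level was 27.1, 27.6 and 32.2 CPM in combination libraries, 35.3, 33.8 and 33.3 CPM in regorafenib libraries, 33.9, 46.0 and 44.8 CPM in anti-PD1 libraries, and 43.3, 43.3 and 42.5 CPM in vehicle libraries. All combination libraries lay below all others, while anti-PD1 alone and vehicle overlapped. Combination versus anti-PD1 gave -0.52 ± 0.11 (SE), a decrease of 30.3% that passed the threshold (edgeR adjusted p = 0.0438). The call was lost in 9 of the 12 fits that left out 1 library, with an adjusted p of up to 0.206; it was kept without anti-PD1 1, regorafenib 1 or combination 3. It was also lost without the filter on low counts and when only the 2 arms compared were fitted. In the latter fit, and without anti-PD1 2, anti-PD1 3 or combination 2, 0 of all genes were called.

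Nsdhl and Hsd17b7 act in sequence in the removal of the methyl groups of lanosterol. Nsdhl averaged 24.1 ± 3.7 CPM in combination, 27.6 ± 7.0 CPM in regorafenib, 34.9 ± 6.6 CPM in anti-PD1 and 46.0 ± 6.6 CPM in vehicle libraries. Hsd17b7 averaged 20.8 ± 6.8, 23.2 ± 4.6, 26.0 ± 6.0 and 40.2 ± 6.4 CPM in these arms. In both genes all 3 vehicle libraries were above all 9 treated ones, and the treated arms overlapped except that the combination libraries were all below the anti-PD1 libraries for Nsdhl (-0.53 ± 0.20, SE; edgeR adjusted p = 0.183, not called).

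The lanosterol demethylase Cyp51 averaged 44.4 ± 7.5 CPM in combination, 50.4 ± 18.4 CPM in regorafenib, 55.4 ± 10.9 CPM in anti-PD1 and 87.3 ± 15.3 CPM in vehicle libraries. The methylsterol oxidase Msmo1 averaged 39.9 ± 11.2, 42.7 ± 22.3, 33.9 ± 8.6 and 64.7 ± 8.6 CPM in these arms, and was lowest with anti-PD1 alone. Squalene synthase (Fdft1) averaged 25.7 ± 5.0, 26.7 ± 10.6, 28.4 ± 2.9 and 45.2 ± 8.5 CPM; it shares 774 of 4227 exonic bases with Ctsb on the opposite strand. Lss, Sc5d and Dhcr7, which form lanosterol, desaturate the sterol ring and complete cholesterol, differed less, with -0.40 ± 0.21, -0.19 ± 0.11 and -0.27 ± 0.12 (SE) in regorafenib versus vehicle.

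Tm7sf2, a sterol reductase of the endoplasmic reticulum and nuclear envelope, went the other way. It read 26.3, 25.7 and 16.8 CPM in combination libraries, 12.6, 19.3 and 16.4 CPM in regorafenib libraries, 15.4, 10.6 and 12.7 CPM in anti-PD1 libraries, and 10.7, 12.1 and 13.4 CPM in vehicle libraries. The combination libraries were above all anti-PD1 and vehicle libraries, and the other arms overlapped. Combination versus anti-PD1 gave 0.83 ± 0.21 (SE) without passing the threshold (edgeR adjusted p = 0.0741). Tm7sf2 shares 532 of 4403 exonic bases on the same strand with Vps51, whose log2 fold change in this comparison was 0.22 ± 0.11 (SE), so part of its reads may be assigned either way.

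**Figure D2:**
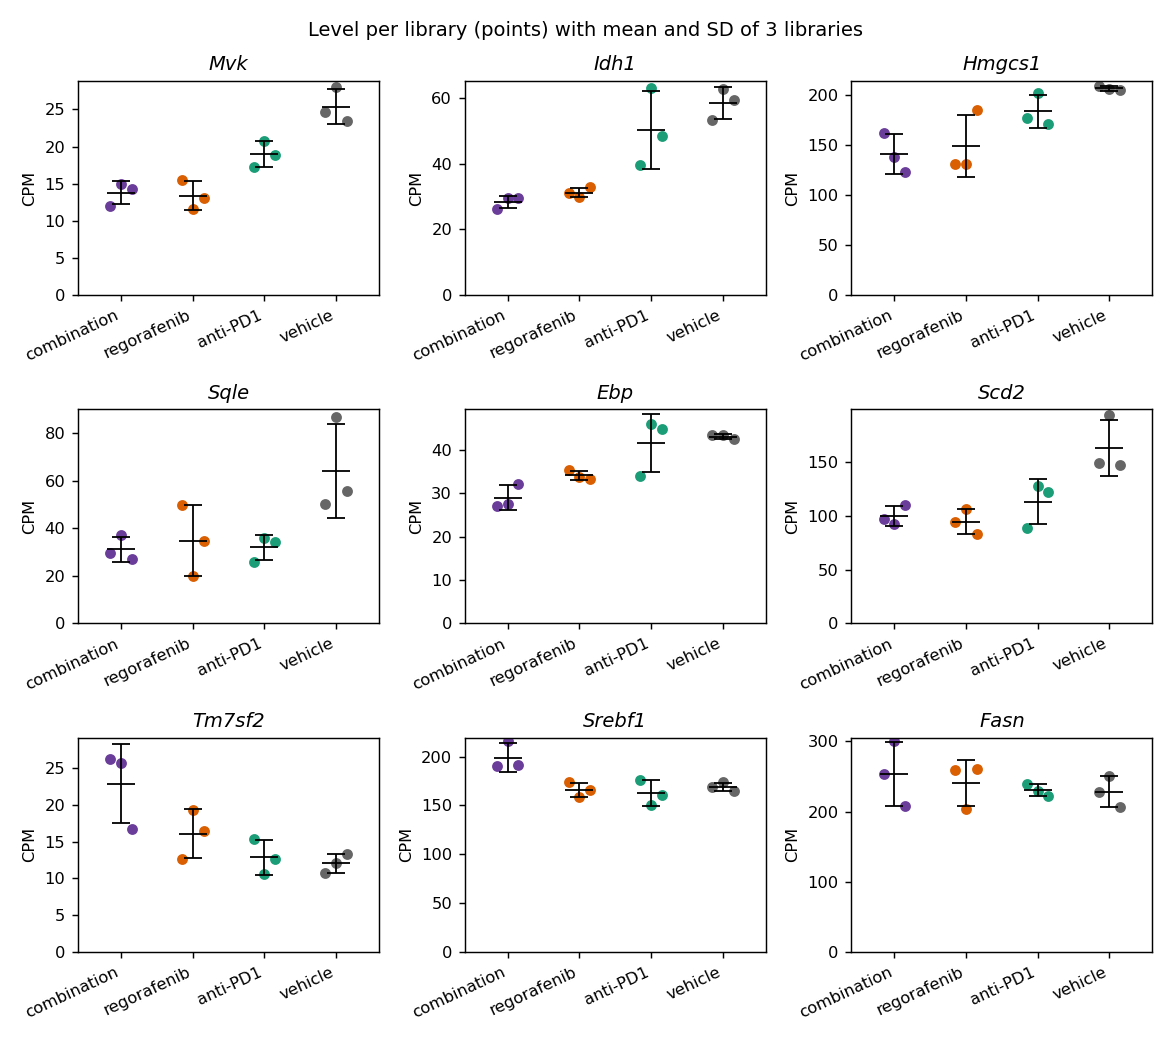
CPM of 9 of the genes in each library (points), with the mean (long line) and SD (whiskers) of the 3 libraries of each arm. Mvk and Idh1 have all 6 libraries with regorafenib below the other 6, Sqle and Hmgcs1 have vehicle above all treated libraries, Tm7sf2 is highest in the combination, and Srebf1 and Fasn sit at similar levels in most arms.

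The 4 regulators and carriers had a median of -0.36 in regorafenib versus vehicle. Srebf2 averaged 173 ± 14 CPM in combination, 180 ± 32 CPM in regorafenib, 202 ± 25 CPM in anti-PD1 and 243 ± 51 CPM in vehicle libraries. The sterol carrier Stard4 averaged 20.5 ± 4.4, 21.8 ± 6.5, 26.0 ± 5.3 and 33.8 ± 4.8 CPM in these arms. Insig1 stayed between 16.03 and 19.43 CPM in all 4 means. Srebf1 was 190, 216 and 191 CPM in combination libraries, 174, 159 and 166 CPM in regorafenib libraries, 176, 150 and 161 CPM in anti-PD1 libraries, and 169, 173 and 165 CPM in vehicle libraries. The combination libraries were thus above all other libraries, at 0.29 ± 0.08 (SE) over anti-PD1 and 0.26 ± 0.08 over regorafenib, and neither difference was called (edgeR adjusted p = 0.0889 and 0.856).

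Among the 9 genes of fatty acid synthesis and its supply, Idh1 and Scd2 had the lowest values in regorafenib versus vehicle. Idh1, the cytosolic enzyme that makes NADPH from isocitrate, lies on chromosome 1 (65158616 to 65186500, minus strand). It read 26.2, 29.5 and 29.6 CPM in combination libraries, 31.1, 29.8 and 32.8 CPM in regorafenib libraries, 39.7, 63.1 and 48.3 CPM in anti-PD1 libraries, and 53.4, 62.9 and 59.4 CPM in vehicle libraries. The 6 libraries with regorafenib lay within 26.2 to 32.8 CPM and all below the other 6, while anti-PD1 alone and vehicle overlapped.

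For Idh1 the log2 fold change was -0.91 ± 0.14 (SE) for regorafenib versus vehicle, -0.83 ± 0.14 for combination versus anti-PD1 and -0.87 ± 0.10 on average, the last a decrease of 45.1%. In combination versus anti-PD1 its edgeR adjusted p, given as a description, was 0.0259. It was above the threshold, at up to 0.112, without vehicle 1, vehicle 3, anti-PD1 2, anti-PD1 3, combination 1 or combination 2, each left out alone. With only the 2 arms compared it was also above, in a fit that called 0 of all genes. The fits without anti-PD1 2, anti-PD1 3 or combination 2 likewise called 0 of all genes, Idh1 included. The difference between its regorafenib effects with and without anti-PD1 was 0.08 ± 0.20 (SE; edgeR adjusted p = 1.00).

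The desaturase Scd2 read 96.6, 92.6 and 110 CPM in combination libraries, 93.9, 106 and 83.1 CPM in regorafenib libraries, 89.0, 127 and 122 CPM in anti-PD1 libraries, and 149, 193 and 147 CPM in vehicle libraries. All 9 treated libraries were below vehicle, and the treated arms overlapped. Its relative Scd1 ranged from 6.01 to 48.8 CPM without any order by arm. Its SE of 0.75 in every pairwise comparison was the widest of the 31.

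The core enzymes of fatty acid synthesis had values nearer to 0 than Idh1 and Scd2 in regorafenib versus vehicle; that gap was not tested. Fatty acid synthase (Fasn) averaged 254 ± 46 CPM in combination, 241 ± 33 CPM in regorafenib, 231 ± 8 CPM in anti-PD1 and 228 ± 22 CPM in vehicle libraries. Acetyl-CoA carboxylase (Acaca) averaged 71.4 ± 10.5, 71.4 ± 13.5, 86.9 ± 10.5 and 77.3 ± 2.7 CPM, and ATP citrate lyase (Acly), which makes cytosolic acetyl-CoA, 148 ± 3, 167 ± 26, 171 ± 24 and 181 ± 7 CPM. In regorafenib versus vehicle these 3 genes gave 0.08 ± 0.14, -0.11 ± 0.15 and -0.12 ± 0.12 (SE), and in combination versus vehicle 0.15 ± 0.14, -0.11 ± 0.15 and -0.29 ± 0.12. All combination libraries were below all vehicle libraries for Acly, which was not called (edgeR adjusted p = 0.147). In regorafenib versus vehicle the acetate-activating enzyme Acss2, malic enzyme Me1 and the elongase Elovl6 gave -0.56 ± 0.19, -0.38 ± 0.15 and -0.44 ± 0.25.

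When regorafenib was added to anti-PD1, 24 of the 31 members were negative, with a median of -0.23 against -0.01 for all genes; the median was -0.13 without anti-PD1 2. Of the members, 2 were called lower (Idh1 and Ebp), where 0.224% of all genes were, and 0 were called higher, where 1.7% were (1.92% in either direction). At an unadjusted p below 0.05 edgeR had 7 members and 19.3% of all genes. DESeq2 called 3 members lower and 2 higher, where 368 and 826 of all 16974 genes were. With 5 members the combination libraries were all below the anti-PD1 libraries (Hmgcs1, Mvk, Nsdhl, Ebp and Idh1; 9.09% of all genes), and with 3 they were all above (Tm7sf2, Sc5d and Srebf1; 13.0% of all genes). These tallies include Mvk and Idh1, for which the comparison is a description. Among the other 29 members, 22 were negative, with a median of -0.21, and 1 was called lower by edgeR. In that set 5 had an unadjusted p below 0.05, and 3 had all combination libraries below all anti-PD1 libraries. All 7 enzymes up to farnesyl diphosphate were negative, with a median of -0.38, but only 7 of the 11 later enzymes, with a median of -0.08. Leaving out vehicle 1, vehicle 3, anti-PD1 2, anti-PD1 3, combination 1 or combination 2 left 0 members called lower. In these fits 4, 5, 0, 0, 2 and 0 of all genes were called lower. Leaving out vehicle 2, regorafenib 2 or regorafenib 3 left 1 member, where 11, 41 and 30 of all genes were lower. Without combination 3, 1 member was called higher, where 381 of all genes were. Averaged over both comparisons, as a description, 6 members were lower (Idh1, Mvk, Ebp, Nsdhl, Scd2 and Hmgcs1; 3.32% of all genes) and Tm7sf2 was higher (6.16% of all genes, and 9.49% in either direction). In 2 of them, Mvk and Idh1, all 6 libraries with regorafenib were below the other 6, as in 1.77% of all genes. That count of 6 was 3 without vehicle 2, anti-PD1 2 or combination 2, and 11 without regorafenib 1. In these fits 163, 119, 144 and 463 of all genes were lower. The 1 higher call was kept only without anti-PD1 1, regorafenib 1 or combination 3.

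**Figure D3:**
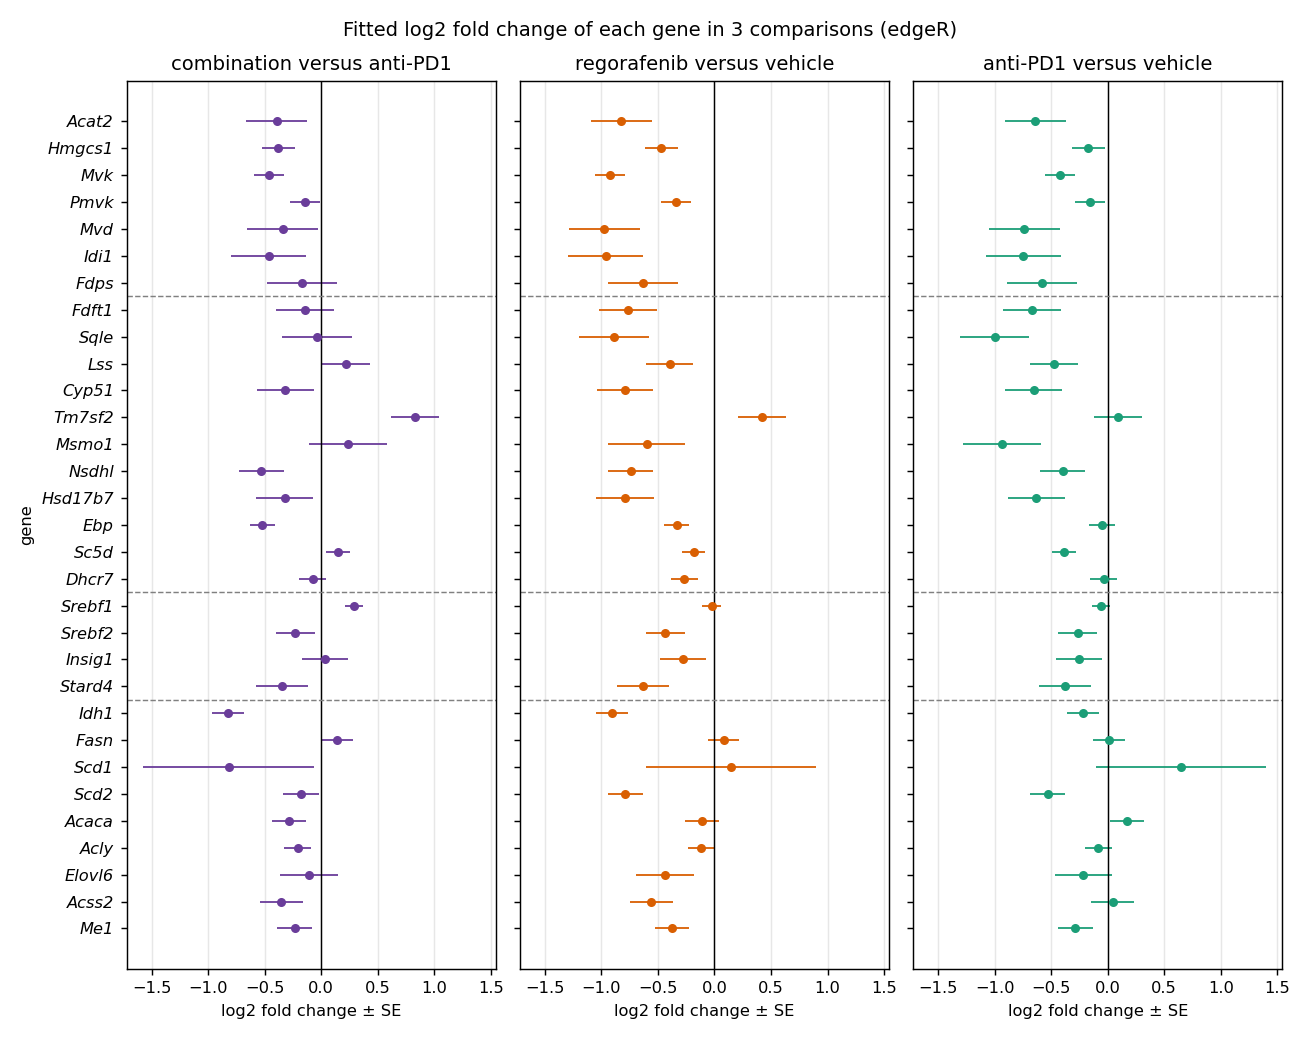
Fitted log2 fold change (point) with its SE (line) of each gene, by role, for combination versus anti-PD1, regorafenib versus vehicle and anti-PD1 versus vehicle. Most points in the upper 2 blocks lie left of 0 in both comparisons with vehicle and nearer to 0 when regorafenib was added to anti-PD1, where Idh1 and Ebp stay left. Both comparisons with vehicle share its 3 libraries.

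Anti-PD1 alone was also below vehicle for most of the route, although no single gene was called. Of the 31 members, 26 were negative in anti-PD1 versus vehicle, with a median of -0.29 against 0.01 for all genes; the median was -0.19 without anti-PD1 1. By edgeR 0 members and 0.0% of all genes were called, the smallest adjusted p of a member being 0.865. At an unadjusted p below 0.05 there were 12 members and 5.17% of all genes. DESeq2 called 0 members, where 3 of all genes were higher and 0 lower. In 13 members the anti-PD1 libraries were all below the vehicle libraries, as in 9.08% of all genes, and in 0 they were all above, as in 7.93%. Sqle gave -1.001 ± 0.309, Msmo1 -0.93 ± 0.34, Idi1 -0.75 ± 0.33 and Mvd -0.74 ± 0.31 (SE). Idh1, in contrast to Mvk (-0.42 ± 0.13), gave -0.22 ± 0.14 with overlapping arms, and Ebp gave -0.05 ± 0.11. This comparison, regorafenib versus vehicle and combination versus vehicle share the same 3 vehicle libraries, in which the genes had been noticed as high, so their values are set side by side and not counted as separate evidence.

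Under the combination, 28 of the 31 members were below vehicle, with a median of -0.55. By edgeR 9 were called lower (Acat2, Hmgcs1, Mvk, Cyp51, Nsdhl, Hsd17b7, Ebp, Idh1 and Scd2), where 2.32% of all genes were, and Tm7sf2 was called higher, where 5.03% were (7.34% in either direction). The combination libraries were all below vehicle in 21 members and all above in 2, each against 19.6% of all genes. Both arms are part of the average in which Mvk and Idh1 were noticed, so for these genes the comparison is a description. Among the other 29 members, 26 were negative, with a median of -0.52. Of these 29, 7 were called lower, and 19 had all combination libraries below all vehicle libraries. The largest difference was that of Idi1, at -1.21 ± 0.34 (SE), which did not pass (edgeR adjusted p = 0.0531). Without any 1 of the vehicle libraries, combination 1 or combination 2, no member was called in either direction, and without anti-PD1 3 the count of 9 was 5. Calls over all genes fell too. Without any 1 vehicle library, 0 of all genes were higher and 1 lower. These counts were 18 and 5 without combination 1, 9 and 3 without combination 2, and 575 and 276 without anti-PD1 3.

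When anti-PD1 was added to regorafenib, 19 of the 31 members were negative and 12 positive, between -0.32 (Scd1) and 0.51 (Tm7sf2). The median of combination versus regorafenib was -0.08; 0 members and 0.0% of all genes were called by edgeR, with 2 members and 5.45% of all genes at an unadjusted p below 0.05. The combination libraries were all below the regorafenib libraries for Ebp and Idh1 (2.83% of all genes) and all above for Srebf1 (4.94%). The median was 0.13 without regorafenib 1, -0.19 without regorafenib 2, -0.16 without combination 2, -0.03 without combination 1 and 0.003 without combination 3. Tm7sf2 averaged 22.9 ± 5.3 CPM in combination and 16.1 ± 3.4 CPM in regorafenib libraries, with overlap. Averaged over both backgrounds, the anti-PD1 effect had a median of -0.18, again with 0 members and 0.0% of all genes called and 4 members and 8.75% of all genes at an unadjusted p below 0.05. The interaction, which is combination versus anti-PD1 minus regorafenib versus vehicle, was positive for 27 of the 31 with a median of 0.32, where all genes had -0.005. Without regorafenib 2 that median was 0.15, and over the other fits that left out 1 library it was 0.23 to 0.44. DESeq2 called 0 members in these 3 comparisons, where 4, 6 and 0 of all genes were higher and 0 were lower. The interaction contains the contrast in which the genes were noticed; 0 members and 0.0% of all genes were called (edgeR adjusted p = 1.00 for each member), with 4 members and 2.65% of all genes at an unadjusted p below 0.05. Its largest positive values were those of Sqle, 0.85 ± 0.43, and Msmo1, 0.84 ± 0.48 (SE).

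Summed over the 18 mevalonate and sterol enzymes, the level was 589, 636 and 545 CPM in combination libraries, 708, 502 and 627 CPM in regorafenib libraries, 597, 741 and 674 CPM in anti-PD1 libraries, and 811, 1007 and 878 CPM in vehicle libraries. All 3 vehicle libraries were above all 9 treated ones, and the treated arms overlapped. By gene, the vehicle mean was the highest of the 4 for 17 of these 18 enzymes and for 25 of all 31 members, against 28.7% of all genes. All 3 vehicle libraries were above all 9 treated ones in 9 members, against 1.58% of all genes. Among the 29 members other than Mvk and Idh1, this was so for 8, and the vehicle mean was highest for 23. These tallies use the vehicle libraries in which Mvk and Idh1 were noticed as high. They are a description and are not read as a test. The 9 genes of fatty acid synthesis and its supply summed to 710, 789 and 654 CPM in combination, 797, 632 and 741 CPM in regorafenib, 724, 887 and 773 CPM in anti-PD1, and 813, 927 and 839 CPM in vehicle libraries, where anti-PD1 and vehicle overlapped.

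**Figure D4:**
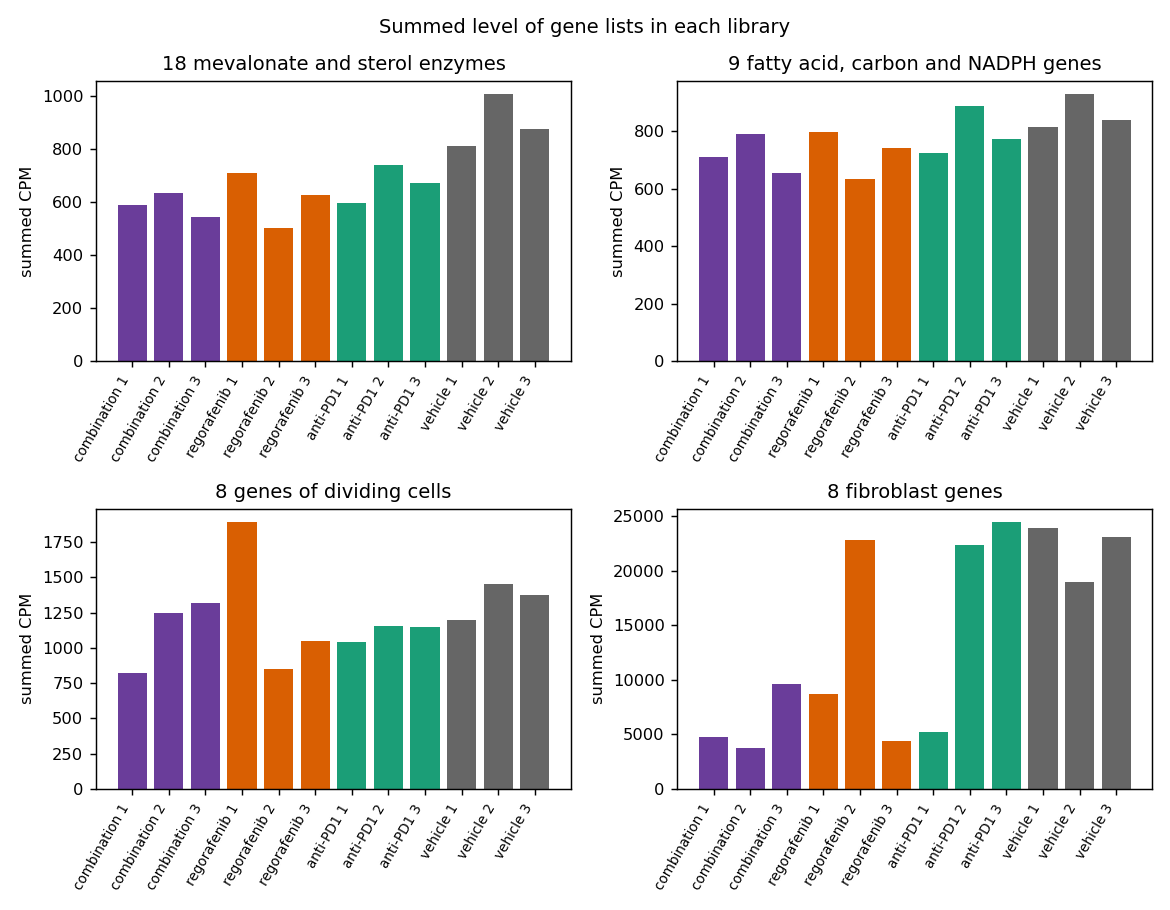
Summed CPM of 4 gene lists in each library (bars from 0), coloured by arm: the 18 mevalonate and sterol enzymes, the 9 fatty acid, carbon and NADPH genes, 8 genes of dividing cells and 8 fibroblast genes. The vehicle bars are the 3 tallest for the sterol enzymes, at 811 to 1007 CPM, regorafenib 1 is the tallest for dividing cells, at 1891 CPM, and the fibroblast sum differs most between libraries of 1 arm.

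Within arms, the sterol enzymes varied together from library to library. Vehicle 2 was the highest of all 12 libraries for 15 of the 18 enzymes and regorafenib 2 the lowest for 9 of them. Regorafenib 1 was above its arm's mean in 15 of the 18, by 0.31 on the log2 scale on average, and regorafenib 2 was 0.29 below on that scale. Over the 12 libraries, deviations from the arm means had a mean pairwise Pearson correlation of 0.41 among the 31 members and 0.0002 among all tested genes. These points share library, depth and cell mixture, and the values are a description.

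Other cell signatures moved beside them. The 8 genes of dividing cells summed to 824, 1249 and 1320 CPM in combination, 1891, 850 and 1052 CPM in regorafenib, 1043, 1153 and 1146 CPM in anti-PD1, and 1197, 1450 and 1371 CPM in vehicle libraries, with none of the 8 at 0. Regorafenib 1 was thus high and regorafenib 2 low both here and in the 18 sterol enzymes, and anti-PD1 was below vehicle in both lists without overlap. The combination arm differed. Combination 3 was above its arm's mean in all 8 genes of dividing cells but in 4 of the 18 sterol enzymes. Combination 1 was above it in 0 of the 8 and in 7 of the 18. Combination and vehicle sums overlapped for dividing cells but not for the sterol enzymes. The 8 fibroblast genes, led by collagens, summed to 4733, 3778 and 9610 CPM in combination, 8684, 22781 and 4383 CPM in regorafenib, 5214, 22320 and 24437 CPM in anti-PD1, and 23857, 18933 and 23115 CPM in vehicle libraries. They were low in anti-PD1 1 and high in regorafenib 2, and none was at 0. By fitted sign all 8 were negative in regorafenib versus vehicle (median -0.51) and in combination versus anti-PD1 (median -0.88). The combination sums were all below the vehicle sums. The adipocyte list of 12 genes summed to 17.6 to 62.8 CPM over all libraries, with its arms overlapping. The sebocyte list of 8 genes summed to 9.38 to 26.6 CPM in combination, 6.29 to 36.8 CPM in regorafenib, 31.8 to 57.2 CPM in anti-PD1 and 21.1 to 62.9 CPM in vehicle libraries, so the combination was below anti-PD1 without overlap. Krt79 made up most of that sum, at 16.6 ± 8.1 CPM in combination, 18.3 ± 15.8 CPM in regorafenib, 41.7 ± 13.3 CPM in anti-PD1 and 47.7 ± 24.3 CPM in vehicle libraries. No gene of either list was at 0 in all libraries. Immune lists went the other way in regorafenib versus vehicle, by the sign of their fitted values. The 8 neutrophil genes summed to 26.4 to 48.3 CPM in combination, 13.5 to 40.0 CPM in regorafenib, 9.71 to 27.7 CPM in anti-PD1 and 10.2 to 16.9 CPM in vehicle libraries, with all 8 positive in regorafenib versus vehicle (median 1.29) and in combination versus anti-PD1 (median 1.32). The 8 T cell genes summed to 62.2 to 198 CPM in combination, 72.7 to 196 CPM in regorafenib, 78.2 to 204 CPM in anti-PD1 and 75.0 to 90.2 CPM in vehicle libraries. The 8 macrophage genes summed to 317 to 889 CPM in combination, 386 to 889 CPM in regorafenib, 457 to 924 CPM in anti-PD1 and 452 to 564 CPM in vehicle libraries. In regorafenib versus vehicle all 8 T cell genes (median 0.87) and all 8 macrophage genes (median 0.51) were positive. In combination versus anti-PD1 3 of the 8 were positive in each list, with medians of -0.14 and -0.09. The T cell and macrophage sums of every treated arm overlapped those of vehicle. By edgeR 0 genes of the immune lists were called in regorafenib versus vehicle (0.00589% of all genes) or in combination versus anti-PD1 (1.92%). The 8 endothelial genes summed to 61.5 to 112 CPM in combination, 81.8 to 110 CPM in regorafenib, 93.9 to 133 CPM in anti-PD1 and 99.0 to 115 CPM in vehicle libraries. Of these, 7 were negative in regorafenib versus vehicle (median -0.24) and 6 in combination versus anti-PD1 (median -0.43). The part of any of these cell types in the sterol gene values was not tested, and in bulk tumours fewer cells of a type and less RNA per cell cannot be told apart.

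The genes around the route were called about as often as all genes: in combination versus anti-PD1, 2 of the 83 tested genes of 6 lists passed (2.41%, against 1.92% of all genes), and 15 had an unadjusted p below 0.05 (18.1%, against 19.3%). The list of SREBP processing factors with Mmab, a cobalamin enzyme gene whose start lies 209 bases from that of Mvk on the opposite strand, had 8 genes and 0 calls in combination versus anti-PD1, with 1 gene at an unadjusted p below 0.05 by edgeR. Mmab gave -0.26 ± 0.08 (SE) in regorafenib versus vehicle and 0.01 ± 0.08 in combination versus anti-PD1, where Mvk gave -0.46 ± 0.14. In the 14 genes of the isoprenoid branch, 5 had an unadjusted p below 0.05 by edgeR in combination versus anti-PD1, and 1 was called higher. This was Coq2, a transferase of ubiquinone synthesis, at 60.3 ± 4.5 CPM in combination and 46.1 ± 4.1 CPM in anti-PD1 libraries (log2 0.39, edgeR adjusted p = 0.0434). In fatty acid oxidation, 11 of 12 tested genes were negative in this comparison, with a median of -0.20 against -0.01 for all genes. Anti-PD1 versus vehicle, however, was positive for 11 of the 12, with a median of 0.15. The list had medians of -0.03 in regorafenib versus vehicle and -0.005 in combination versus vehicle. In combination versus anti-PD1, 4 had an unadjusted p below 0.05 by edgeR. In 4 of the genes all combination libraries were below all anti-PD1 libraries (9.09% of all genes). The 1 called was Hadha, a subunit of the mitochondrial trifunctional protein, at 98.4 ± 6.0 CPM in combination and 123 ± 4 CPM in anti-PD1 libraries (log2 -0.33, edgeR adjusted p = 0.0434). Its partner subunit Hadhb gave -0.30 without passing (edgeR adjusted p = 0.0521). No gene was called in this comparison among 20 genes of sterol efflux and storage, 18 tested genes of elongation, desaturation and activation, and 11 tested genes of other NADPH sources; at an unadjusted p below 0.05 there were 1, 3 and 1. Coq2 kept its call without anti-PD1 1 or regorafenib 1 and Hadha without regorafenib 1 or combination 3, and both lost it in each of the other 10 fits that left out 1 library, with adjusted p-values of up to 0.236 and 0.198 by edgeR. Both were also lost without the filter on low counts and with only the 2 arms compared, and Coq2 with RLE factors as well. With only these 2 arms, or without anti-PD1 2, anti-PD1 3 or combination 2, 0 of all genes were called.

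In combination versus vehicle, 6 of the 83 genes were called by edgeR (7.23%, against 7.34% of all genes). All 6 calls were lost without any 1 of the vehicle libraries, combination 1 or combination 2. In those fits at most 18 of all genes were called higher and at most 5 lower. Scd4, another desaturase, was at 2.91 ± 1.57 CPM in combination and 21.9 ± 5.6 CPM in vehicle libraries (log2 -2.91, adjusted p = 0.0132, edgeR). The cholesterol exporter Abca1 was at 147 ± 13 CPM in combination and 66.2 ± 16.4 CPM in vehicle libraries (log2 1.15, adjusted p = 0.0267, edgeR). The other 4 were Mlx (-0.30), Fnta (-0.36), Coq2 (0.38) and Hadhb (-0.30). Against vehicle, anti-PD1 alone had none of these lists called by edgeR; the smallest p-values were those of Scd4 (-1.60), Slc25a20 (0.28) and Cpt1a (0.32), each with an adjusted p of 0.865. The smallest in combination versus regorafenib were those of Mlx (-0.22), Ggps1 (-0.23) and Abca1 (0.63), at an adjusted p of 0.856 by edgeR. For the average anti-PD1 effect they were Scd4 (-1.21), Mlx (-0.17) and Abca1 (0.54), at 0.558, and for the interaction Slc25a20 (-0.42), Ggps1 (-0.24) and Mmab (0.27), at 1.00, none of them called by edgeR.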

How the data were processed

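RNA from subcutaneous Sq-1979 tumours was sequenced as 12 polyA libraries made with a stranded mRNA kit, per the labels' protocols. The authors deposited raw read counts per Ensembl gene for all 12 libraries; the submitters' processing notes name cutadapt 2.4, STAR 2.7.2a and GRCm38. The counter, its strand setting and its annotation release are not given in the sources used here, so reads of overlapping genes may be split or dropped; 12 members share exonic bases with another gene. Identifiers were paired with GENCODE M21 names (55141 of 55487 with a symbol).

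All steps from the counts on were run here. Genes were filtered by expression (at least 10 counts in enough libraries and 15 in total), scaled by TMM and fitted in 1 model of 4 arm means over 12 libraries (8 residual degrees of freedom) with the robust quasi-likelihood F test of edgeR 4.0.16 in R 4.3.3, two-sided, with Benjamini-Hochberg adjustment over 16974 genes. The common biological coefficient of variation was 0.227, and 99.9% of reads lay in tested genes. SE is the log2 fold change over the root of F. CPM per kb uses the union of annotated exons. The fit was tested on simulated data in which 200 genes were changed. For combination versus anti-PD1 it recovered 18% of 1.5-fold, 50% of 2-fold and 62% of 3-fold changes. For the average regorafenib effect it recovered 46%, 58% and 82%.

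The members and all gene lists were chosen with earlier results of these data known. All 31 members are named; other pathway genes are named when called in a tested comparison, at most the 6 with the smallest p, or the 3 smallest where fewer than 3 passed. Cell type lists are given as sums. Alternatives were DESeq2 1.42.0, RLE factors, no filter, a replicate block, only the 2 arms compared, and leaving out each library. Same-numbered libraries of different arms correlated over 0.1 in 2 of 18 pairs, so the numbers were not taken to pair libraries. Other genes of the route are not analysed here.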

Additional observations from a re-analysis of the deposited data

How the results depend on the processing

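The direction of the members' median held under every alternative run except for combination versus regorafenib, whose median lay between -0.19 and 0.13 as single libraries were left out. Over those fits the median was -0.56 to -0.31 for regorafenib versus vehicle, -0.31 to -0.13 for combination versus anti-PD1 and -0.41 to -0.19 for anti-PD1 versus vehicle. No called member changed sign under any alternative run; of the members that were not called, up to 23 (combination versus regorafenib) changed sign under at least 1 alternative, and in combination versus anti-PD1 8 did, among them Sqle. Over the fits that left out 1 library only, members called lower ranged from 0 to 1 (regorafenib versus vehicle), 0 to 2 (combination versus anti-PD1), 3 to 11 (average regorafenib effect) and 0 to 13 (combination versus vehicle). Members called higher ranged from 0 to 1 in the last 3. Of all genes, 0 to 2, 0 to 93, 119 to 853 and 1 to 601 were called lower in these fits. The ranges of genes called higher were 0 to 381, 341 to 1195 and 0 to 999 in the last 3.

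With DESeq2, members called lower were 4 in regorafenib versus vehicle, 13 in the average regorafenib effect and 16 in combination versus vehicle. Of all 16974 genes, DESeq2 called 153, 1234 and 1146 lower in these comparisons. In combination versus anti-PD1 it called 3 members lower and 2 higher, where 368 and 826 of all genes were. Without the count filter, 2 members were lower in regorafenib versus vehicle and 1 in combination versus anti-PD1, where 4 and 23 of all 32550 genes were. Fitting only the arms compared gave 0 members lower in combination versus anti-PD1 and 16 in combination versus vehicle. Of all genes, 0 of 16347 and 885 of 16320 were lower in these fits. With the replicate number as a block, 0 members were lower in combination versus anti-PD1 and 1 in combination versus vehicle. Of all genes, 0 and 4 were lower there. In the block fit 0 members were higher in the average regorafenib effect and in combination versus vehicle, where 375 and 7 genes were. The replicate numbers do not pair the libraries (correlations of -0.66 to 0.63). The causes were not tested. With 3 libraries an arm, changes of 1.5-fold and 2-fold were often missed in simulations, and some of 3-fold were. The simulations changed 200 genes, fewer than the 1610 called for the average regorafenib effect, so recovery in these data may differ. Exonic overlaps limit Fdps, Fdft1 and Tm7sf2.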
